A study of Mus musculus with 4 samples.

Results

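The irradiation response of Wip1+/+ mouse embryonic fibroblasts was read from 2 of the 4 arrays of the series. Embryonic fibroblasts are mesenchymal cells grown out of embryos and kept in culture. An Affymetrix Mouse Genome 430 2.0 array held RNA of unirradiated Wip1+/+ cells, labelled 0 h, and the other held RNA of Wip1+/+ cells taken 4 h after they received 5 Gy of gamma rays. The remaining 2 arrays held cells labelled Wip1-/-, unirradiated and 4 h after the same dose. They are named by their label because Ppm1d signal did not set them apart. One Ppm1d probe set read 504 and 482 there, against 375 and 364 in Wip1+/+ cells. The other read 219 and 561 there, against 317 and 463, lower in unirradiated and higher in irradiated cells. Where these probes lie relative to the alteration of the gene was not analysed here. Wip1 is the phosphatase encoded by Ppm1d, which acts on p53 and on kinases of the damage response. The labels do not say how many embryos or cultures gave the RNA, and there is no unirradiated array at 4 h, so the effect of radiation and that of 4 h in culture cannot be told apart. Of 45037 probe sets that were not controls, 34945 carried a single gene symbol and were used. They stood for 18193 genes, of which 11546 were bright enough to enter and 6398 had a mean signal of at least 500 over the 4 arrays. These 6398 are called bright. RNA came from whole cultures, in which fewer cells of a type and less RNA per cell cannot be told apart.

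Ionising radiation breaks both strands of DNA. The kinases Atm and Chek2 then act on p53 and on its ligase Mdm2, so that p53 accumulates and switches on genes of growth arrest, cell death, repair and its own restraint. Embryonic fibroblasts with intact p53 are known to arrest in the cell cycle after radiation more than they die. Ligases and phosphatases that p53 itself induces, Mdm2 and Wip1 among them, shut the signal down again.

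Each condition had 1 array, so no test was possible and every count below is a count by size of difference. The signal is the intensity of a probe set on a linear scale, and the ratio is that of irradiated over unirradiated cells. Within this pair of arrays the spread depended on brightness. Probe sets of the same gene differed in their log2 ratio with an SD of 0.60 at a mean signal under 200, 0.34 from 200 to 500, 0.23 from 500 to 1000, 0.16 from 1000 to 2000, 0.13 from 2000 to 5000 and 0.10 above that. Over all bright genes this SD was 0.18, from 2317 genes. It covers probes on these arrays and not cultures. The bacterial and phage spike-in controls, 18 in all, had an SD of the log2 ratio of 0.10 in this pair, and none differed by 1.5-fold. Of the 4 arrays, that of unirradiated cells labelled Wip1-/- differed most in these controls, with a spike-in SD of 0.44 to 0.47 in each pair that held it. Its signals are not part of the Wip1+/+ ratios. They do count in the floor, in the choice of probe set and in the mean signal over the 4 arrays. That mean decides which genes enter and which are bright. With means from the 2 Wip1+/+ arrays alone, 6417 genes were bright. This array also holds part of the values given for the arrays labelled Wip1-/-.

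**Figure D1:**
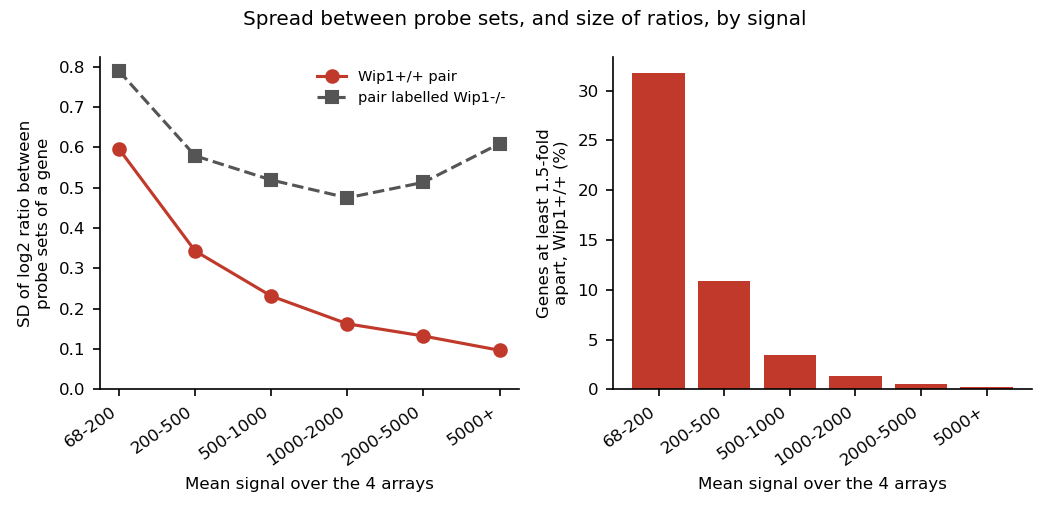
Left, SD of the log2 irradiation ratio between probe sets of the same gene (y axis) in bins of mean signal (x axis), for the Wip1+/+ pair of arrays (circles) and the pair labelled Wip1-/- (squares). Right, the percentage of genes at least 1.5-fold apart in the Wip1+/+ pair, which falls from 31.8% in the dimmest bin to 0.216% in the brightest.

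The response of Wip1+/+ cells was small among well measured genes. After irradiation 72 of the 6398 bright genes were higher by 1.5-fold or more and 38 were lower by as much, which is 1.13% and 0.594% of them. With the probe sets of each gene summarised by their median, the counts were 52 higher and 67 lower, so which direction held more genes turned with this choice. In all, 89.4% lay within 1.25-fold of equal signal. The median log2 ratio was 0.01 and the SD over these genes 0.21. At 2-fold, 3 bright genes were higher (Chac1, Egr1 and 9230114K14Rik), 0.0469%, and 2 were lower (Fbxo36 and Serpinb6e), 0.0313%. Over all 11546 genes 1.58% were 2-fold higher and 1.5% lower. Among the 5148 dimmer genes 11.1% passed 1.5-fold upwards and 10.7% downwards. Of the 72 brighter genes, 50 had a mean between 500 and 1000 and 6 one of 2000 or more. At the edge of the 1.5-fold limit, Ntn4 was just inside at 1.501-fold and Eda2r just outside at 1.499-fold. At the edge of the signal limit, Bola1 had a mean of 502 and Rbbp6, which was 1.51-fold apart and is not counted, one of 497.

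**Figure D2:**
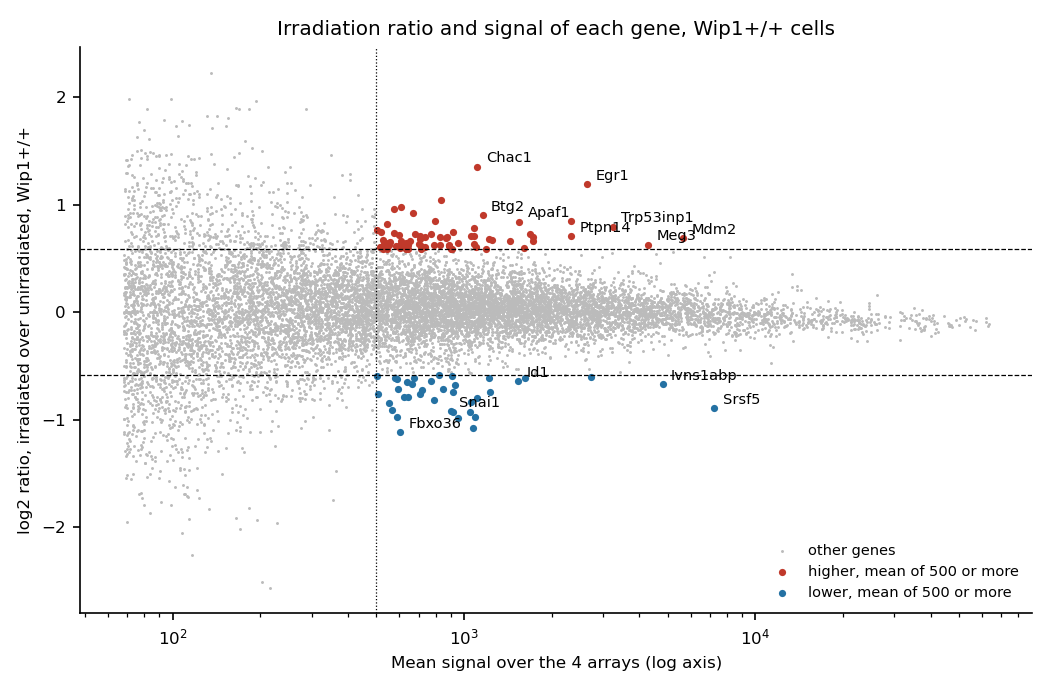
Log2 ratio of irradiated over unirradiated Wip1+/+ cells (y axis) against the mean signal over the 4 arrays (x axis, log scale), 1 point per gene. Red and blue points are the 72 and 38 genes with a mean of 500 or more (dotted line) that passed 1.5-fold (dashed lines), and the cloud narrows as signal grows.

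Known p53 targets made up a large part of the higher genes for their number. The gene lists were chosen with earlier results of these data known, so the shares of lists given here and below are descriptions, not tests. Of 46 bright targets, 9 were at least 1.5-fold higher, or 19.6%, against 1.13% of bright genes. None of the 46 was 1.5-fold lower, where 0.594% of all such genes were. Their median log2 ratio was 0.22 against 0.01 for all bright genes, and 34 had a ratio above 1, or 73.9% against 52.7%. Where the probe sets of each gene were summarised by their median, not by the brightest, the count was 3 of 46, against 0.813% of all bright genes. With brightness from the 2 Wip1+/+ arrays alone, it was 8 of 48, or 16.7%, against 1.14%. Targets under a mean of 500 gave less: 5 of 29 were at least 1.5-fold higher, or 17.2%, against 11.1% of all genes that dim.

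The feedback group holds genes that restrain p53 and genes that promote its activity. Mdm2, the ligase that marks p53 for degradation, read 4050 in unirradiated and 6533 in irradiated cells, 1.61-fold higher. Its second bright probe set read 3088 and 4771. Both probe sets were thus higher by nearly the same factor, at log2 ratios of 0.69 and 0.63. Trp53inp1, which promotes the killing activity of p53, read 2573 and 4471, 1.74-fold higher. Its dimmer probe set had a log2 ratio of 0.28. Ccng1, cyclin G1, which works with Mdm2, was among the brightest targets without radiation. It read 28480 and 31743, a log2 ratio of 0.16. Ccng2, its relative, read 2254 and 2251. Mdm4, the Mdm2 partner that masks p53, read 258 and 329. In this group Mdm2 and Trp53inp1 stood alone past 1.5-fold among bright members. Ppm1d, given above, was not bright.

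Among targets of growth arrest, Btg2, an antiproliferative cofactor of mRNA decay, showed the widest bright difference. It read 915 and 1715 by its brighter probe set and 974 and 1592 by the other, 1.87-fold higher by the first. Ptpn14, a phosphatase that restrains the YAP growth factor pathway, read 2049 and 3341, 1.63-fold higher, while its dimmer probe sets had log2 ratios of 0.30 and -0.22. Fbxw7, a ubiquitin ligase subunit that removes cyclin E and Myc, read 409 and 615. Its other probe set read 457 and 570. Cdkn1a, the CDK inhibitor that carries out p53 arrest, stood high before radiation. It read 12735 and 16318, a log2 ratio of 0.36 or 1.28-fold, and its dimmer probe set 2350 and 2313. Hexim1, an inhibitor of transcription elongation, read 897 and 1235. Zmat3, an RNA-binding protein, read 2912 and 3596, and Phlda3, which blocks Akt at the membrane, 5256 and 5966. Plk2, a stress-induced kinase, did not differ, at 5204 and 5137. Of the 9 bright arrest targets 8 were higher, and the median of their log2 ratios was 0.36. Gadd45a, a stress sensor of arrest and repair, was dimmer and 2.44-fold higher, at 222 and 542.

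All 17 measured targets of cell death had a ratio above 1, where 52.3% of all 11546 genes did. Their median log2 ratio was 0.24. With probe sets summarised by their median, 14 of the 17 were above 1. Apaf1, the scaffold of the apoptosome, read 1108 and 1988, 1.80-fold higher, and its dimmer probe set read 302 and 595, 1.97-fold. Eda2r, a receptor of the TNF family, read 935 and 1401. Ei24, an endoplasmic reticulum protein, read 3786 and 5524, 1.46-fold higher. Pmaip1, the BH3-only protein Noxa, was bright in both, at 7236 and 8522. Perp, a membrane protein of desmosomes and cell death, read 931 and 1157, and Aen, an exonuclease, 1796 and 2117. Bid, Shisa5 and Triap1 had log2 ratios from 0.04 to 0.08, within the spread between probe sets of their brightness. Siva1, at 4220 and 4693, had 0.15, slightly over that spread of 0.13, and its dimmer probe sets had 0.35, 0.00 and 0.34. Of the dimmer members, Pidd1, the scaffold of caspase-2 activation, read 90.3 and 352, and Fas, a death receptor, 316 and 595. Bbc3, the BH3-only protein Puma, read 348 and 584.

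Targets of repair, redox and metabolism were mixed, with a median log2 ratio of 0.15 over 15 bright members, 9 above 1 and 6 below. Sesn2, a sestrin that restrains mTOR, read 566 and 921, 1.63-fold higher, but 457 and 466 by its other probe set. Lpin1, a phosphatidate phosphatase of lipid synthesis, read 789 and 1219 and, by a second probe set, 294 and 407. Dcxr, a carbonyl reductase, read 1249 and 1823. Slc19a2, a thiamine transporter, read 2022 and 2704, and Polk, a translesion polymerase, 1053 and 1388. Pcna, the sliding clamp of replication and repair, read 8600 and 7747. Sco2, Ak1, Gpx1, Rps27l and Prkab1 were also below 1, with log2 ratios of -0.14 to -0.04. Among secreted, surface and signalling targets, Zfp365 read 498 and 944, but its dimmer probe set 162 and 160. Abhd4, a lipase, read 6010 and 7782, while Csf1, Epha2, Ndrg1 and Thbs1 lay below 1, at -0.05 to -0.16. This last group had a median of 0.03 over 8 bright members. Tap1, a peptide transporter of antigen presentation, was dimmer and 2.02-fold higher, at 193 and 391. In the other direction Ptprv, a receptor phosphatase, read 156 and then below the floor of 46.5, at least 3.35-fold lower, and Tgfa, a growth factor, read 157 and 102.

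**Figure D3:**
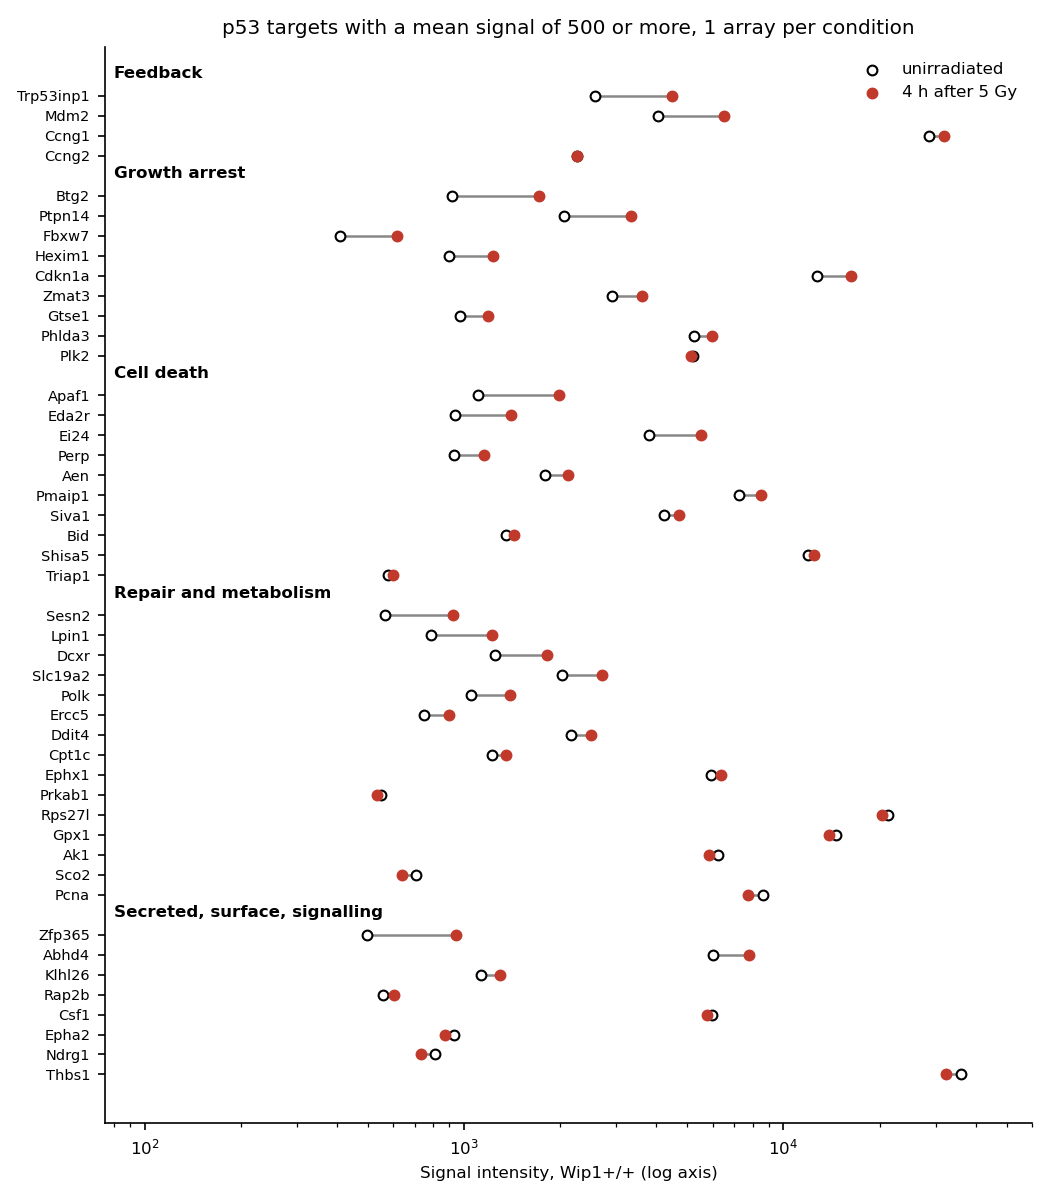
Signal of the 46 p53 targets with a mean of 500 or more in Wip1+/+ cells (x axis, log scale), unirradiated (open circles) and 4 h after 5 Gy (red circles), 1 array per condition, grouped by role and ordered by ratio. Lines join the signals of a gene, and the longest among growth arrest and cell death genes are those of Btg2 and Apaf1.

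Promoter sequences of RefSeq (GRCm38.p6), from 250 bases before to 50 after each annotated start, were searched on both strands for the consensus decamer of p53, which pairs with a second decamer up to 13 bases away in a full p53 response element. Of 64 p53 targets with a window, 15 held at least 1 decamer, or 23.4%, against 9.55% of all 27025 genes. A pair of decamers stood in the window of 1 of the 64, Cdkn1a, and of 20 genes in all, 0.0740%. Among the 72 genes at least 1.5-fold higher, 55 had a window and 6 held a decamer, or 10.9%, near the 8.33% of all bright genes. Among the lower genes 4 of 28 windows held one, or 14.3%. Only these 300 bases were searched, and many p53 elements lie farther out or within introns. A match is a description of the letters, not a site of binding. The windows of Cdkn1a, Mdm2 and Ddit4l are printed as examples among the genes that hold these matches. The decamers are in capitals (in Cdkn1a the capitals run over both decamers and the bases between). Of the higher genes, Nfyb, Pid1, Pkig and Pml also hold a decamer and are not printed. The printed window of Cdkn1a belongs to the upstream of its annotated starts.
Cdkn1a (chr17:29090729-29091028, plus strand): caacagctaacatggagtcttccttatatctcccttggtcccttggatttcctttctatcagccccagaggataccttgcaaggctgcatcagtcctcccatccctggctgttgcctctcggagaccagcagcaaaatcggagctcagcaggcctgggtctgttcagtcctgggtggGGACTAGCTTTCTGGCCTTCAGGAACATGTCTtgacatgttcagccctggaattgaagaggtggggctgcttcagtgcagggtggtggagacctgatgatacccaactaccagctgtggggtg
Mdm2 (chr10:117710709-117711008, minus strand): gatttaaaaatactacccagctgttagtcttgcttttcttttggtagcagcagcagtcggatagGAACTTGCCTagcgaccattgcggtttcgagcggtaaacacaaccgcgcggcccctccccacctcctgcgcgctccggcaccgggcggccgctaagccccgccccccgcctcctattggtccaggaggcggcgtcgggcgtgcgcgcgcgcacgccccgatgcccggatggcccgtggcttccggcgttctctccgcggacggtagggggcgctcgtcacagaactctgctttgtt
Ddit4l (chr3:137623422-137623721, plus strand): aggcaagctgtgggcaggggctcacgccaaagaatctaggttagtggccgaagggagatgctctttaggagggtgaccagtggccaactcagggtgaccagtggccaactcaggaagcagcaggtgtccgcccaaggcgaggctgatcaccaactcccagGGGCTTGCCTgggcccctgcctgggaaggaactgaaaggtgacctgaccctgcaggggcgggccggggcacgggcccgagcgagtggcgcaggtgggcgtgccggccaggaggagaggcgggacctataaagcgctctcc

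Agreement between probe sets was examined as a check that did not rest on single probe sets. Of 5107 genes with several probe sets above the floor in both conditions, 12 had all of them at least 1.5-fold higher, 0.235%, and 18 all of them at least 1.5-fold lower, 0.352%. The 12 held 3 p53 targets, Apaf1, Btg2 and Mdm2. Ddit4l, an inhibitor of mTOR related to Ddit4, was higher by each of 3 probe sets, which read 836 and 1369, 524 and 887, and 385 and 762. Dapk1, a calmodulin-regulated kinase that promotes cell death, read 483 and 950 by one and 262 and 424 by the other. The rest were dim: Zfp825, Wdr91, Zfp944, Zfp329, Jrk, Chmp4c and Adamtsl1, with a highest mean of 247. Of the 18 lower genes, 4 were bright: Nipal1, a magnesium transporter, Rian, an imprinted noncoding RNA, Dcp1a, an mRNA decapping factor, and Acaa1a, a peroxisomal thiolase. Sox9, a transcription factor of cartilage, led them with log2 ratios of -1.80 and -0.77. Among the 72 higher bright genes, 43 had another probe set above the floor in both conditions. In 28 of the 43 all others were also above 1, and in 5 all were at least 1.5-fold higher. Of the 38 lower bright genes, 16 had another such probe set. In 11 of the 16 all others were also below 1, and in 4 all were at least 1.5-fold lower. Taken singly, 52.3% of all 11546 genes were above 1 and 47.4% below.

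The arrays labelled Wip1-/- gave an irradiation ratio that shared no array with the Wip1+/+ ratio. That pair was noisier, with an SD between probe sets of 0.54 for bright genes, against 0.18. There 12.2% of bright genes passed 1.5-fold upwards and 10.4% downwards. Its summed macrophage marker signal was 3004 and 2522, against 10342 and 10376 in Wip1+/+ cells, and the part of this in the values was not tested. Of the 72 genes higher in Wip1+/+ cells, 26 were also at least 1.5-fold higher in this pair. That is 36.1% of the 72 and 3.34% of the 779 genes higher in the pair. The median log2 ratio of the 72 was 0.33 in this pair, where all bright genes had -0.03. Of the 38 lower genes, 5 were at least 1.5-fold lower there, or 13.2%, close to the 10.4% of all bright genes, and 8 were at least 1.5-fold higher. As a description across genes, which are not replicates, Pearson r between the 2 ratios was 0.12 over 6398 genes and 0.53 over the 46 p53 targets, with Spearman rho of 0.11 and 0.58.

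The targets that were higher on both pairs of arrays were Btg2, which read 691 and 1316 on the arrays labelled Wip1-/-, Trp53inp1 (1858 and 4070), Ptpn14 (1280 and 2686), Fbxw7 (357 and 722) and Lpin1 (498 and 804). These 5 were at least 1.5-fold higher in each by their brightest probe set. For Mdm2 and Apaf1 the probe sets disagreed on the arrays labelled Wip1-/-. Mdm2 read 5777 and 6285 by its brightest probe set and 3006 and 5179 by the second, log2 ratios of 0.12 and 0.79. Apaf1 read 1642 and 1460 by its brightest and 313 and 550 by the other, log2 ratios of -0.17 and 0.81. Sesn2 had 0.21 and 0.01 there by its probe sets, and Zfp365 0.12 and 0.63. The difference between the genotype labels was not tested, since each condition had 1 array.

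**Figure D4:**
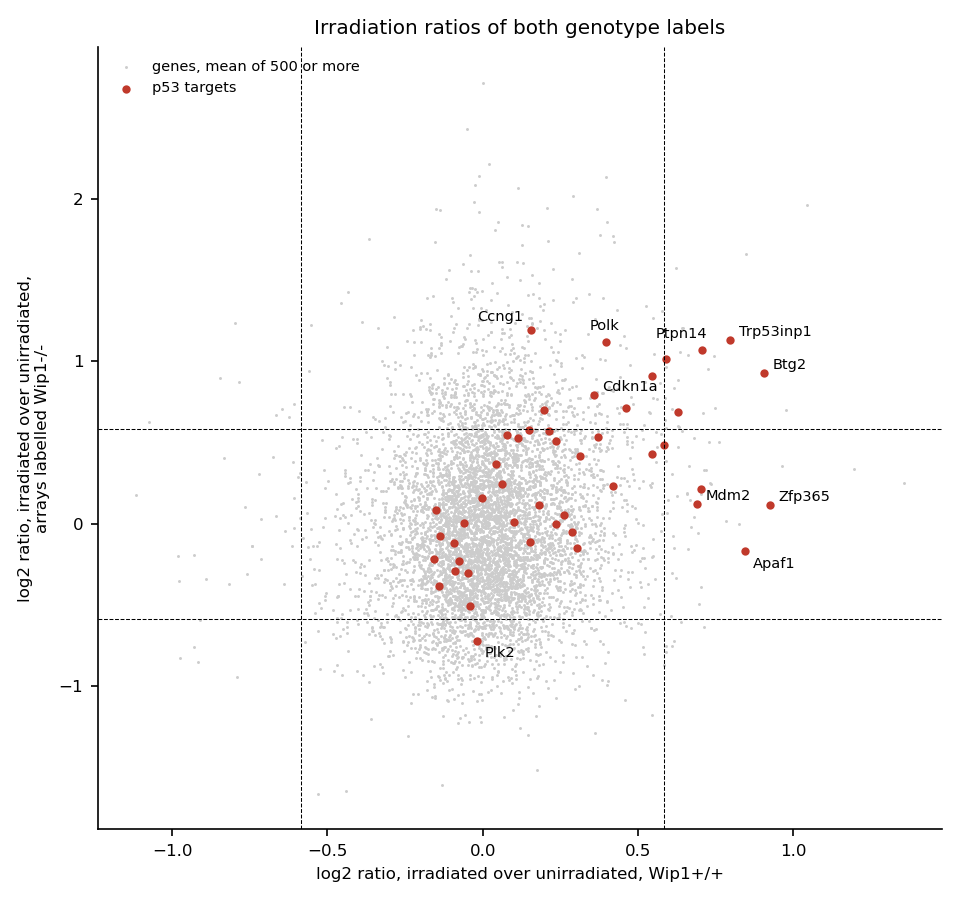
Log2 irradiation ratio on the arrays labelled Wip1-/- (y axis) against that in Wip1+/+ cells (x axis) for 6398 bright genes (grey), with the 46 p53 targets in red and dashed lines at 1.5-fold. The grey cloud is taller than wide, and the red points lie mostly to the right of 0.

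Immediate early genes, which growth factors and stress switch on within minutes, did not differ as a group. Of 29 measured, 14 were higher after irradiation and 15 lower. The median of their log2 ratios was -0.03. The sign of this median turned under 6 of 10 alternative settings. Egr1, a zinc finger factor of this class, read 1617 and 3701, 2.29-fold higher and second only to Chac1 among bright genes. Fosl1, an AP-1 subunit, read 908 and 1416, and its dimmer probe set 260 and 341. Fos was dimmer, at 206 and 413. Ier2 read 620 and 863, Myc 946 and 1252, and Klf6 2196 and 2870, all under 1.5-fold. Jun read 2038 and 2337, Junb 676 and 600, and Fosl2 4867 and 4370. Nr4a1 read 1304 and 1017 and Klf10 874 and 700. Differences past 1.5-fold among these named genes were those of Egr1, Fos and Fosl1. Feedback inhibitors of growth factor signalling were also mixed, 10 of 18 above 1. Spry2, a Sprouty inhibitor of Ras signalling, read 803 and 1128, while Dusp14, a dual-specificity phosphatase, read 1206 and 736. Dusp1, the early MAP kinase phosphatase, read 4450 and 4974.

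Targets of TGF-beta and BMP, Notch, Wnt and YAP signalling were lower as a group. Of 19 measured, 15 had a ratio below 1, or 78.9% against 47.4% of all genes, with a median log2 ratio of -0.18 that kept its sign under all 10 alternative settings. Among the 11 bright members 9 were below 1, where 47.3% of all bright genes were, with a median of -0.14. The Notch targets Hey1, Hey2, Heyl and Nrarp and the Wnt targets Nkd1, Lef1 and Notum were dim. Their means lay under 200, where the SD between probe sets was 0.60. The Id factors, inhibitors of differentiation that BMP signals induce, were lower in each of 3 genes. They were set apart as a group after their values were seen. Id1 read 2159 and 1385, Id2 2092 and 1455 and Id3 5638 and 4282. A second probe set of Id2 read 924 and 360. Hes1, the Notch-induced repressor, read 770 and 577. Smad7 and Smad6, inhibitors that TGF-beta and BMP induce, had log2 ratios of -0.14 each. Lats2, a kinase that YAP induces and that restrains it, went the other way, at 1427 and 1773, and so did Tgif1, at 2113 and 2401. None of the bright members apart from Id1 passed 1.5-fold. Snai1, a repressor that TGF-beta induces and that is outside the list, read 1164 and 617. On the arrays labelled Wip1-/-, Id1, Id2, Id3 and Snai1 had log2 ratios of -0.37, -0.89, -0.40 and -0.85.

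Clock genes and NF-kB targets showed no bright member past 1.5-fold. Of 15 clock genes 10 were below 1, with a median of -0.07; Bhlhe40 read 1654 and 1357 and Csnk1e 2079 and 1612. Of 24 NF-kB targets 13 were above 1, with a median of 0.03. Nfkbia, the inhibitor that NF-kB itself induces, read 3657 and 3679. Nfkbiz, an atypical inhibitor outside the list, read 680 and 1139, with dimmer probe sets at 234 and 311 and at 128 and 327.

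Chac1, a glutathione-degrading enzyme that Atf4 and Ddit3 induce, had the widest bright difference, 2.56-fold, at 440 and 1125. It has a single probe set. The 33 genes of the integrated stress response as a whole did not share it: 13 were above 1 and 20 below. Those below were 60.6%, against 47.4% of all genes, and the median of the 33 on the log2 scale was -0.10. Regulators and effectors of this response went both ways. Ddit3, the death-promoting factor CHOP, read 1883 and 2453, Vldlr, a lipoprotein receptor, 715 and 981, Trib3, a pseudokinase, 296 and 411, and Atf4, the master factor, 5926 and 6665. In contrast the log2 ratios of Atf5, Cebpb and Ppp1r15a, which restarts translation, were -0.25, -0.22 and -0.24. The 7 enzymes of serine, one-carbon and asparagine synthesis were all below 1, with log2 ratios from -0.23 to 0.00. So were 5 of 7 aminoacyl-tRNA synthetases, where 47.4% of all genes were below 1. These enzyme groups were formed after their values were seen. In the unfolded protein response, Herpud1, a factor of protein degradation at the endoplasmic reticulum, read 1297 and 2151, and 1188 and 1711 by its other probe set. Dnajc3 and Eif2ak3 had log2 ratios of 0.34. The main chaperones differed little: Hspa5 read 23803 and 21336, Hsp90b1 15901 and 16428, and Calr 20245 and 17883.

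The windows of Chac1 and Btg2 are printed for the motifs of stress-activated bZIP factors that they hold, in capitals. In Chac1 it is TGATGNAA, the element of Atf4 with C/EBP partners, here on the opposite strand, 193 to 186 bases before the start. This motif stood in 8 of 28 windows of the integrated stress response list, 28.6%, in 4.51% of all genes and in 3 of the 55 higher genes, Chac1, Herpud1 and Tmem19. In Btg2 it is TGACGTCA, the cyclic AMP response element, 166 to 159 bases before the start, found in 2.03% of all genes and in 5 of 64 p53 targets.
Chac1 (chr2:119350992-119351291, plus strand): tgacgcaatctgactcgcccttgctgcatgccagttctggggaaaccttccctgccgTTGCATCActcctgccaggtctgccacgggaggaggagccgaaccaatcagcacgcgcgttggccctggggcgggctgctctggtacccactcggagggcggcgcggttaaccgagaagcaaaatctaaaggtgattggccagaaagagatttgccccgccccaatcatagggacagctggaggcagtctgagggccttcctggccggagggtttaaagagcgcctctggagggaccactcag
Btg2 (chr1:134079106-134079405, minus strand): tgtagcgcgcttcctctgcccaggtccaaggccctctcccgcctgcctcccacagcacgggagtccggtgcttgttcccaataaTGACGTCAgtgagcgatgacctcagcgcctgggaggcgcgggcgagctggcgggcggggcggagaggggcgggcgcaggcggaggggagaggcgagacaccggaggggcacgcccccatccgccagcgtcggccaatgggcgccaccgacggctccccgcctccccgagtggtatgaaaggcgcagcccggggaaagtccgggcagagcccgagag

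Other stress and metabolic programmes had no bright member past 1.5-fold. Heat shock proteins had a median log2 ratio of -0.01 over 17 genes, with Hspa1b at 2864 and 3536 and Hspa8 at 34078 and 33169. Nrf2 targets had a median of -0.03 over 23 genes, with Gclc, the enzyme that limits glutathione synthesis, at 791 and 1114 and Hmox1, haem oxygenase, at 4383 and 3986. For hypoxia and glycolysis the median over 24 genes was 0.06. In cholesterol synthesis the median was 0.07 over 20 genes, with Idi1, the isoprenoid isomerase, at 2473 and 3618 and Stard4, a sterol carrier, at 945 and 640. Interferon-stimulated genes had a median of -0.04 over 19 genes, with Eif2ak2, the kinase PKR, at 809 and 1202.

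Genes of mitosis were lower as a group by small amounts. Of 47 measured, 35 had a ratio below 1, or 74.5% against 47.4% of all genes, and the median log2 ratio was -0.15 against 0.01. The median kept its sign under all 10 alternative settings. Among the 32 bright ones 24 were below 1, where 47.3% of all bright genes were, and none was 1.5-fold lower. Prc1, a spindle midzone protein, read 1816 and 1256, but 885 and 871 by its other probe set. Plk1, a mitotic kinase, read 900 and 633. Ccna2, cyclin A2, read 1565 and 1104, and 1240 and 1003 by its other probe set. Cdk1 read 3220 and 2782, Ccnb2, cyclin B2, 1220 and 1004, and Cdc20, an activator of anaphase, 3777 and 3392. Ckap2, a spindle protein, went against the rest, at 1209 and 1785. Of the dimmer members, 4 were at least 1.5-fold lower: Foxm1, the transcription factor of mitotic genes, Kif4, Espl1 and Nek2. Of all genes with a mean under 500, 10.7% were as much lower. These 4 had means between 200 and 500, where the SD between probe sets was 0.34. Wee1, the kinase that holds Cdk1 inactive and outside the list, read 1006 and 666. On the arrays labelled Wip1-/-, 15 of the 32 bright mitosis genes were above 1, with a median log2 ratio of -0.04.

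Replication genes leaned the same way, 31 of 51 below 1 with a median log2 ratio of -0.06. Mcm2, a subunit of the replicative helicase, read 1266 and 729 by a probe set whose name marks it as prone to cross-hybridization. Its other probe set had a log2 ratio of -0.28. The helicase subunits were grouped after their values were seen. Of the remaining helicase subunits, 4 were lower by smaller factors and Mcm7 was slightly higher: Mcm6 read 3039 and 2445, Mcm4 2092 and 1751, Mcm5 1670 and 1475, Mcm3 970 and 868 and Mcm7 3318 and 3438. Ccne1, cyclin E1, read 1558 and 1313, and Ccnd1, cyclin D1, 4992 and 4958. Inhibitors of CDKs and the pocket proteins, 10 genes in all, were each above 1, where 52.3% of all genes were, with a median of 0.18. Under quantile normalization, cyclic loess and scaling by the brighter probe sets 9 of the 10 were above 1. Some were close to 1: Rbl2, Cdkn2d and Cdkn1c had log2 ratios of 0.005, 0.04 and 0.05. These lie within the spread between probe sets of their brightness. On the arrays labelled Wip1-/-, 2 of the 5 bright members were above 1. Rb1, the retinoblastoma protein, read 924 and 1269, and Cdkn2b, the inhibitor p15, 3205 and 3727. On the arrays labelled Wip1-/-, 19 of 35 bright replication genes were above 1, with a median log2 ratio of 0.07. The 6 helicase subunits were all above 1 there by their brightest probe sets. Their log2 ratios ran from 0.03 for Mcm4 to 1.40 for Mcm3.

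Mitotic genes share a promoter element, the cell cycle homology region, whose core is TTTGAA. It was found in 27 of 38 windows of the list, 71.1%, against 20.2% of all genes and 13.4% of bright ones. The CCAAT box stood in 28 of the 38, 73.7%, against 41.1% of all. Plk1 is shown as an example, with TTTGAA in capitals.
Plk1 (chr7:122159185-122159484, plus strand): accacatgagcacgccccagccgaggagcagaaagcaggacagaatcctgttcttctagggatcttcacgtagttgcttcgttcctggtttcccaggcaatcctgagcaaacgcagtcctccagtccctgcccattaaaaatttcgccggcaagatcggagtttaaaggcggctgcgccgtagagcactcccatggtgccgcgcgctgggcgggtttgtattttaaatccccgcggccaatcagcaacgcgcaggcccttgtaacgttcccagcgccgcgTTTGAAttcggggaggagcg

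Genes of DNA repair and its signalling did not differ as groups among bright members. Of 19 damage kinases and sensors, 11 were above 1, none past 1.5-fold, with Atm at 569 and 473, Trp53bp1 at 996 and 829 and Rad50 at 632 and 698. Excision and mismatch repair genes had a median of -0.02 over 27 genes. Homologous recombination and Fanconi genes had a median of -0.38 over 22 genes. Of these 22, 1 was bright, and the sign turned with a filter at the 67th percentile, so this value rests on dim signals. Rev3l, the catalytic subunit of a translesion polymerase outside the lists, read 526 and 834.

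Most of the higher bright genes belonged to no list: 13 of the 72 were in any. Besides those given, the widest were Nfyb, a subunit of the CCAAT-binding factor, at 377 and 735, although its other probe set had a log2 ratio of 0.16, Pkig, an inhibitor of protein kinase A, at 572 and 1030, Ccdc47, an endoplasmic reticulum protein, at 2146 and 3863, and Psmg4, a proteasome assembly factor, at 386 and 683. Without probe sets whose names mark possible cross-hybridization, Pkig and Ccdc47 had log2 ratios of -0.10 and -0.03. Slc33a1, an acetyl-CoA transporter, read 874 and 1502, Rbm15, an RNA-binding protein, 335 and 568, and Arap2, a GTPase-activating protein, 434 and 730. Snapc1, which serves small nuclear RNA genes, read 561 and 928. Further genes past 1.5-fold were picked from lower in the ranking. They were Pml, the scaffold of nuclear bodies, at 590 and 945, and Inhbb, an activin subunit, at 960 and 1540. Creb1, the factor that binds cyclic AMP response elements, read 461 and 720, and Prkaa1, a catalytic subunit of AMP-activated kinase, 441 and 676. On the arrays labelled Wip1-/-, log2 ratios of these 12 genes ran from -0.17 for Pkig and -0.15 for Prkaa1, through 0.00 for Psmg4, 0.02 for Slc33a1 and 0.04 for Inhbb, to 0.96 for Snapc1 and 1.66 for Ccdc47. Between these lay Nfyb (0.36), Rbm15 (0.50), Pml (0.53), Creb1 (0.57) and Arap2 (0.71).

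Of the 38 lower bright genes, 3 were in a list: Id1, Dusp14 and Mcm2. The brightest was Srsf5, an SR protein of splicing, which read 10174 and 5490, 1.85-fold lower by its single probe set. The other SR proteins and their kinases, a family compiled after this value was seen, had a median log2 ratio of -0.09 over 14 genes. Of these, 10 were below 1, or 71.4% against 47.4% of all genes, and no bright one passed 1.5-fold. Ivns1abp, an actin-binding Kelch protein, read 6442 and 4061. Rrp15 and Rrp9, factors of ribosomal RNA processing, read 1221 and 618, and 828 and 488. In a list of ribosome assembly genes compiled afterwards, 25 of 33 genes besides these were below 1, or 75.8% against 47.4% of all genes, with a median of -0.09. Klf13 and Klf16, zinc finger factors, read 1034 and 543, and 703 and 357, but another probe set of Klf13 had a log2 ratio of 0.07. Pim1, a short-lived survival kinase, read 592 and 315, Gas1, a surface protein of hedgehog signalling, 779 and 451, and Rgs4, a regulator of G protein signalling, 696 and 416. The Wnt receptors Fzd2 and Fzd6 read 3105 and 2040, and 837 and 527. Over the other 8 Frizzled-type receptors and the other 14 Kruppel-like and Sp factors, lists also compiled after these values were seen, the medians were 0.11 and -0.03. Fbxo36 had the widest bright difference in this direction, 776 and 358, 2.17-fold lower.

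Control groups and cell markers had small ratios, some leaning to one side. Reference genes had a median log2 ratio of -0.01 and respiratory chain genes -0.02, and none of either passed 1.5-fold. Ribosomal proteins had a median of -0.08, with 37 of 40 below 1. Under quantile normalization 21 were above and 18 below, and the brightest genes as a whole, with a mean of 5000 or more, had a median of -0.04. Fibroblast markers were strong in both, with Col1a1 at 33836 and 30332, Vim at 56634 and 53198 and Thy1 at 8597 and 8407, and none of 22 was 1.5-fold apart. Of these 22, 16 were below 1, or 72.7% against 47.4% of all genes, with a median of -0.07, and so were 8 of 12 myofibroblast markers, with a median of -0.10. Under quantile normalization and cyclic loess the fibroblast median was -0.005 and -0.006. That of myofibroblast markers was then -0.02 and -0.03. Of 17 macrophage markers, 15 were above the floor in each condition, with a summed signal of 10342 and 10376. Aif1 and Itgam were at the floor in both. Endothelial markers were at the floor in 7 of 14 in each condition, with a summed signal of 1309 and 1167, and Pecam1, Tie1 and Vwf were at the floor in both. Epithelial markers summed to 1748 and 1838.

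**Figure D5:**
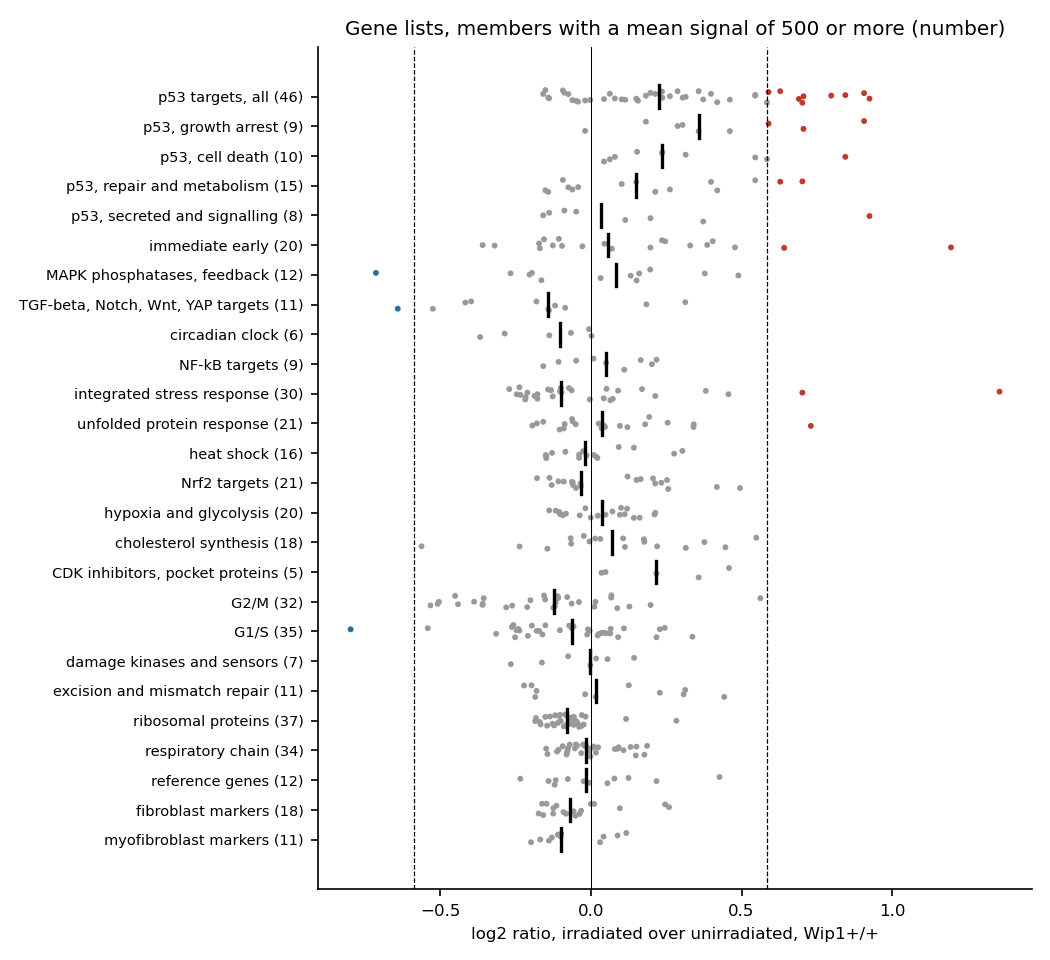
Log2 irradiation ratio in Wip1+/+ cells (x axis) of the members of each gene list (rows), bright genes only, 1 point per gene, with black bars at the medians and dashed lines at 1.5-fold. The p53 lists hold most of the red points past 1.5-fold, and the medians of G2/M genes and of TGF-beta, Notch, Wnt and YAP targets lie to the left of 0.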

How the data were processed

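The deposited tables give the signal intensity of each probe set, not log-transformed. The submitters' processing notes name GCOS, with no version. Background correction: not given in the sources used here. For each deposited array the mean after trimming 2% at each end was 500, so values were used as scaled by the authors. Probe sets were named by the platform annotation, with symbols checked against RefSeq GRCm38.p6, which changed 0 symbols. Probe sets with several symbols (932) or none (9160) were left out. Values under 46.5, the 40th percentile of all pooled values, were set to that floor before log2. A gene was represented by its brightest probe set, by the average of 4 arrays, and was kept where this average reached 67.95, the median of all probe sets that were not controls.

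With 1 array per group, genes were counted by size: 1.5-fold for means of 500 or more and 2-fold over all. The members and gene lists were chosen with earlier results of these data known, and lists for splicing, ribosome assembly, Frizzled and Kruppel-like factors were added after the values were seen. Genes were to be named by a rule. It took the widest bright differences past 1.5-fold, genes whose probe sets agreed, list members past 1.5-fold and the brightest list members. The rule was not followed throughout. Some of the widest higher genes, such as Oxnad1, Arhgap24, Purg and Pid1, were passed over. Pml, Inhbb, Creb1 and Prkaa1 were named from lower in that ranking. Among the lower genes, Ctage5, Tnks1bp1 and Lactb were passed over. Rrp9, Rgs4, Ivns1abp, Fzd2 and Fzd6 were named from beyond the widest. Some other genes are marked where named. Alternatives, 10 in all, changed normalization, floor, filter, the choice of probe set and the measure of brightness. Alternative normalizations ran in limma 3.58.1 (R 4.3.3); all else ran in Python 3.11.15. The counting was tested on simulated data with less noise than these arrays and true differences of 2-fold or more. That run cannot show how many of the 1.5-fold differences here are noise. The number of arrays limits the precision.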

Additional observations from a re-analysis of the deposited data

Results flagged for a closer look

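Among the 110 bright genes past 1.5-fold in Wip1+/+ cells, 14 were at least 1.5-fold apart in the opposite direction on the arrays labelled Wip1-/-. Of the 72 higher genes, 6 were lower there, or 8.33%, under the 10.4% of all bright genes. Of the 38 lower genes, 8 were higher there, or 21.1% against 12.2%. The differences between the genotype labels were not tested, and each rests on the unirradiated array whose spike-in controls stood apart. The log2 ratio in Wip1+/+ cells minus that on the arrays labelled Wip1-/- was 1.35 for Mylip, 1.25 for Trmt1l, 1.34 for Nbeal1, 1.36 for Zfp110, 1.38 for Zc3h7b and 1.34 for Nsmce2, which were higher in Wip1+/+ cells after irradiation. It was -2.04 for Mcm2, -1.74 for Rpp21, -1.70 for Serpinb6e, -1.66 for Chtf8, -1.34 for Fzd6, -1.35 for Dcp1a, -1.28 for Acaa1a and -1.35 for Kdm4a, which were lower in Wip1+/+ cells. None of the 14 is a p53 target of the lists used. The other probe set of Mcm2, whose difference was widest, gave -0.28 in Wip1+/+ cells and -0.21 on the arrays labelled Wip1-/-.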

How the results depend on the processing

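Of 90 values of the counts and list medians under the 10 alternatives, 80 kept their direction and size. The number of genes at least 2-fold higher was 182 and became 20 with a filter at the 67th percentile. The number 2-fold lower was 173 and became 8 with that filter and 281 with no filter. Fewer or more dim genes then entered. With the median over probe sets, 67 bright genes were 1.5-fold lower in place of 38 and 52 were higher in place of 72; the cause was not tested. The immediate early median of -0.03 became 0.0243 under quantile normalization, 0.0107 under cyclic loess, 0.0087 with no filter, 0.0575 with a filter at the 67th percentile, 0.0074 with the median over probe sets and 0.0453 with brightness from the Wip1+/+ arrays. The medians of p53 targets, G2/M, G1/S and integrated stress response genes kept their sign throughout, with p53 targets between 0.18 and 0.20. Of the 110 named bright genes, 97 or more stayed past 1.5-fold under every alternative except the median over probe sets, where 66 did. Alternatives of the floor or the filter could not move these genes, which were bright and above the floor on both Wip1+/+ arrays. All 110 therefore stayed under those. Signs turned in 10 values of single genes. With the median over probe sets, the log2 ratio was -0.0161 for Fam120b, -0.19 for Gtf3c1, -0.41 for Krit1, -0.28 for Ncoa2, -0.34 for Nsun4, -0.0827 for Rev3l and -0.0068 for Siah1a. Without probe sets prone to cross-hybridization it was -0.0284 for Ccdc47, -0.10 for Pkig and -0.28 for Trib2. No paired analysis was possible because each group held 1 array.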

Other observations

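The imprinted noncoding RNAs Meg3 and Rian, transcribed from neighbouring parts of a locus, had opposite ratios in Wip1+/+ cells. Meg3 read 3548 and 5489 by its brightest probe set, a log2 ratio of 0.63, but its next 4 probe sets had 0.11 to 0.21. Rian read 2028 and 1327 by one probe set and 1294 and 737 by another. On the arrays labelled Wip1-/- the brightest probe sets had log2 ratios of 0.47 and 0.38. These genes were picked after their values were seen.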
